A study of Mus musculus with 38 samples.

Results

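The comparison described here set mouse embryonic fibroblasts (MEFs) expressing SALL4-delN12 against MEFs expressing wild-type SALL4 (SALL4-WT) after 11 days of culture, using RNA-seq. It rests on 1 library of each form out of 38 samples in the series, so no difference below has a replicate check and none carries a p-value. All 35976 genes in the expression table were considered, 1485 short RNAs were left out, and the 13528 genes with at least 1 FPKM (fragments per kilobase of transcript, scaled to the depth of the library) in either library were compared. The fibroblasts came from E13.5 embryos of an Oct4-GFP reporter father and a 129S4/SvJaeJ mother, taken regardless of sex. Each form was delivered by itself with a retrovirus, and both groups were kept in the same reprogramming medium, iCD3, without BMP4. iCD3 holds vitamin C, LIF, bFGF, the GSK3 inhibitor CHIR99021, the DOT1L inhibitor SGC0946, an LSD1 inhibitor and the ROCK inhibitor Y27632, so the controls had these agents too. The cells were collected by trypsin digestion, and no sorting or picking of colonies is described for these libraries. The same forms were also profiled by RNA-seq at days 1, 5 and 9, by ATAC-seq at matching days, and at day 6 by CUT&Tag for H3K27ac and for SALL4.

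SALL4 is a zinc finger transcription factor of pluripotent cells and early embryos. A short conserved stretch at its N-terminus binds the NuRD complex, which combines a chromatin remodelling ATPase with histone deacetylases and is known mainly for lowering transcription at the sites to which it is brought. SALL4-delN12 lacks that stretch but keeps the zinc fingers. Primitive endoderm (PrE, or hypoblast) is the epithelium that forms beside the pluripotent epiblast in the blastocyst. Its identity is set by a cascade of GATA, SOX and FOXA factors, and it gives rise to parietal endoderm, which lays down a thick basement membrane, and to visceral endoderm, which absorbs and secretes nutrients and serum proteins. Mesenchymal cells that turn into such an epithelium have to give up fibroblast matrix genes and take on keratins, claudins and cadherin-based junctions.

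*Sall4* itself was measured at 290.3 FPKM with SALL4-WT and 428.1 FPKM with SALL4-delN12, a difference of 0.56 in log2(FPKM + 1). These values sum endogenous and delivered transcripts, and the deletion cannot be seen in a gene-level FPKM. The difference was of the same sign at days 1, 5 and 9, with values of 0.56, 0.34 and 0.90, so the SALL4-delN12 libraries held more *Sall4* RNA at each day. The deposited values had no read counts, but for genes with a single exon they fell on steps that give the depth as about 8680000 read pairs with SALL4-WT and 8870000 with SALL4-delN12. Of the 133 and 138 values used for this, 92.5% and 85.5% lay within 0.05 of a whole number of reads. The libraries also agreed in breadth, with 13073 and 13057 genes at 1 FPKM or more. Fibroblast collagens were abundant in both, with *Col1a2* at 904 and 577 FPKM. The makeup of the libraries differed in parts. The 13 mitochondrial mRNAs summed to 89111.4 FPKM with SALL4-WT and 75442 with SALL4-delN12, and the 76 ribosomal protein genes compared had a median difference of 0.51 with 74 of 76 above 0. *Rps18*, a ribosomal protein gene, stood at 57.7 FPKM in the SALL4-WT library of day 11 against 426 to 806 FPKM in the other 7 libraries of both forms.

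All differences below are SALL4-delN12 minus SALL4-WT in log2(FPKM + 1), a scale that understates the change of weakly expressed genes, and a gene is said to have risen or fallen where that difference reached 1 in size, or 2-fold. By this measure 842 genes rose (6.22% of the genes compared) and 814 fell (6.02%). The median over the 13528 genes was 0.01, and 9469 of them (70.0%) differed by less than 1.5-fold. Large differences were few. A difference of 3 or more was reached by 40 genes and one of -3 or less by 23 genes, while 59 genes went from under 1 FPKM with SALL4-WT to at least 5 FPKM with SALL4-delN12 and 48 genes did the reverse.

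**Figure D1:**
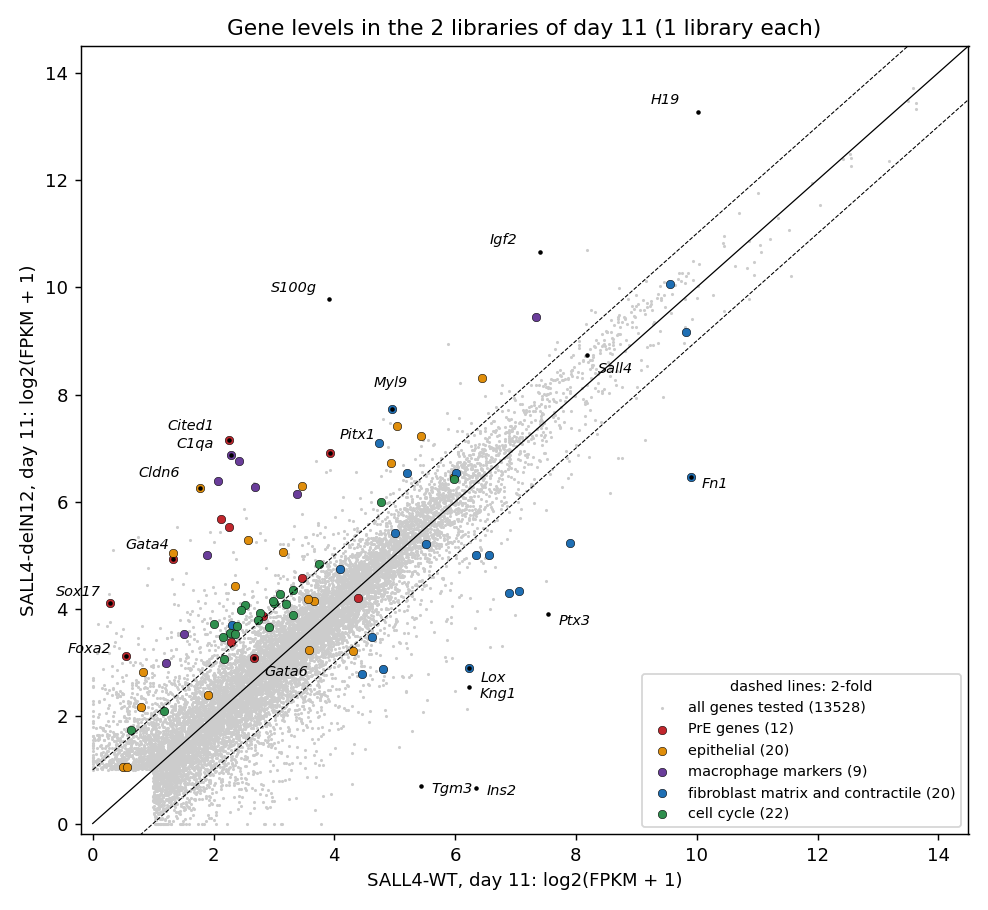
Level of each of the 13528 genes compared in the SALL4-WT library (x axis) and the SALL4-delN12 library (y axis) of day 11, both in log2(FPKM + 1), 1 library each. The solid line marks equal levels and the dashed lines 2-fold. Coloured points are members of 5 gene lists, and PrE, epithelial, macrophage and cell cycle genes lie mostly above the diagonal while *Fn1*, *Lox*, *Tgm3* and *Ins2* lie far below it.

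Of 12 PrE genes that the study followed, 10 rose with SALL4-delN12 and none fell, with a median of 2.77 against 0.01 for all genes. The study picked these genes on libraries of this series, so their count is not independent evidence of a direction. *Gata4*, which with *Gata6* stands at the top of the PrE cascade, went from 1.51 to 29.3 FPKM (3.60). *Sox17*, a factor of definitive and extraembryonic endoderm, went from 0.224 to 16.2 FPKM (3.81). *Foxa2*, a pioneer factor of endoderm, went from 0.462 to 7.68 FPKM (2.57). All of these were at 1.51 FPKM or less with SALL4-WT. *Pitx1*, a homeobox factor, started higher, at 14.3 FPKM, and reached 119 (2.97). *Cited1*, a coactivator that does not bind DNA itself, had the largest difference of the list, from 3.79 to 140.5 FPKM (4.88). Genes for proteins outside the nucleus rose as well. *Lama1*, the laminin chain of the parietal basement membrane, went from 3.38 to 50.2 FPKM (3.55), and *Pth1r*, the receptor for parathyroid hormone and its related peptide, from 3.76 to 45.0 FPKM (3.27). The endocytic adaptor *Dab2* (10.0 and 22.7 FPKM), *Chst15* (3.90 and 9.50) and *Eva1a* (6.05 and 13.7) were just past 2-fold. *Gata6* was at 5.36 and 7.49 FPKM (0.42) and *Klf4*, a factor shared with pluripotent cells, at 19.9 and 17.5 FPKM (-0.17), so the list did not move as a whole.

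A wider list of 17 endoderm transcription factors gave 13 that could be compared, of which 7 rose and none fell, with a median of 1.58. Beside *Gata4*, *Sox17*, *Foxa2* and *Pitx1*, these included *Foxa3* (listed at 0 with SALL4-WT and at 3.84 FPKM with SALL4-delN12) and *Hnf4a* (0.012 and 2.02 FPKM), liver and visceral endoderm regulators that each stayed under 5 FPKM. *Sox7*, a parietal endoderm factor related to *Sox17*, was at 6.42 and 6.35 FPKM, and *Gata5* at 0.494 and 1.62 FPKM. *Foxa1*, *Otx2*, *Eomes* and *Lhx1* were under 1 FPKM in both libraries. Because several members entered only through their level with SALL4-delN12, the median depends on the filter, and it was 0.81 with no filter and 2.57 for members at 5 FPKM or more.

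Taken over all starts of each gene, *Hnf4a* was the 1 endoderm factor with an ATAC-seq peak within 2 kb in SALL4-delN12 cells alone at day 11. Its score was 204, on the peak caller's scale, which is larger for a lower p-value. SALL4-WT cells and MEFs had no peak there, and neither form had one at day 9. Some starts of *Foxa2* also had a day 11 peak with SALL4-delN12 alone (score 122), but another of its starts had one in both forms and in MEFs. The *Hnf4a* peak overlapped the stretch printed here, which lies just before the first RefSeq exon of *Hnf4a* at chr2:163506607-163506810 (mm10, plus strand). It is shown because its RNA and a peak at its start were both seen with SALL4-delN12. Capitals mark the letters of a GATA motif, which starts 52 bases before the start site of the listed transcript. A match is a description of the letters and not a site of binding.
Hnf4a: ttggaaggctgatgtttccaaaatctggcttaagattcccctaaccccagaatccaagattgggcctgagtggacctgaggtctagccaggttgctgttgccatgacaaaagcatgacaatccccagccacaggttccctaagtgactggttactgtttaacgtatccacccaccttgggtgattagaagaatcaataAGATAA

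Of 20 visceral endoderm genes for serum proteins and lipid transport, 11 could be compared, 6 rose and none fell, with a median of 1.02 (0.08 over the genes of the list with no filter). *Apoa1*, an apolipoprotein, went from 0.175 to 11.8 FPKM (3.45), and *Ihh*, the hedgehog ligand that visceral endoderm sends to the mesoderm beneath it, from 0.302 to 10.8 FPKM (3.18). *Rbp4*, the retinol carrier, went from 0.577 to 5.13 FPKM (1.96), and *Spink1*, *Apoa4* and *Apoa2* also rose. The classical serum markers did not. *Afp* was at 0.166 and 0.676 FPKM, *Ttr* at 1.65 and 2.68 FPKM, and *Apoe*, which many cells make, at 1863 and 1870 FPKM (0.00). Among 15 genes of endocytic uptake, 14 were compared, 4 rose and none fell, and the median was -0.09. The 4 were the folate receptor *Folr1* (1.77 and 10.6 FPKM), the cubilin partner *Amn* (0.169 and 1.72), *Dab2* and the large scavenger receptor *Lrp2* (1.34 and 3.95), which act at the apical surface, while lysosomal genes such as *Ctsl* and *Lamp2* had differences of -0.47 and -0.50.

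Basement membrane genes of parietal endoderm moved less as a group. Of 16 compared, 3 rose, 1 fell and the median was 0.34. *Lama1* and *Pth1r* are described above, and *Podxl*, a sialomucin of apical membranes, was the third (19.3 and 40.4 FPKM). The genes for the laminin partners and for type IV collagen, which fibroblasts also express, were already high with SALL4-WT. *Lamb1* was at 58.0 and 94.0 FPKM, *Lamc1* at 87.3 and 119, *Col4a1* at 172 and 181, and *Sparc* at 1391 and 1808 FPKM. *Nid1*, a linker of laminin and collagen IV, fell from 133 to 50.7 FPKM (-1.37).

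Epithelial genes rose widely. Of 20 compared, 12 rose and 1 fell, with a median of 1.79. The tight junction genes *Cldn6* and *Cldn7* went from 2.42 to 75.7 FPKM (4.49) and from 1.51 to 32.0 FPKM (3.72). *Cdh1*, which encodes E-cadherin, went from 4.14 to 20.5 FPKM (2.06), and the adhesion molecule *Epcam* from 4.97 to 38.01 FPKM (2.71). Keratins of simple epithelia were expressed at higher levels, with *Krt8* at 31.8 and 169 FPKM (2.38), *Krt18* at 85.9 and 316 FPKM (1.87) and *Krt19* at 10.0 and 77.6 FPKM (2.83). The epithelial regulators *Grhl2*, *Esrp1* and *Esrp2* had differences of 0.49, 0.54 and 0.49, short of 2-fold. *Prom1*, a membrane protein of apical protrusions, fell from 18.8 to 8.24 FPKM (-1.10).

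**Figure D2:**
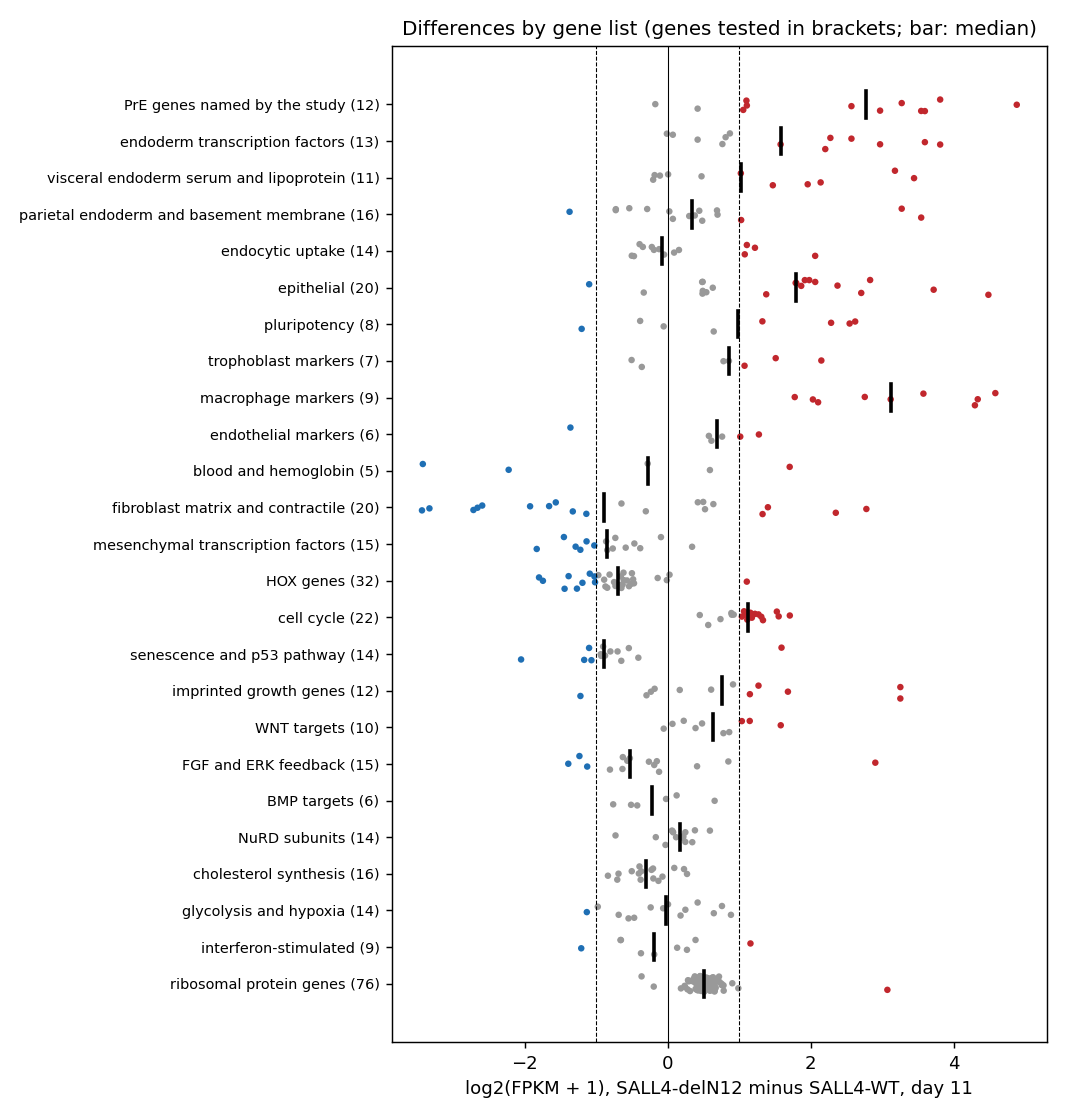
Difference in log2(FPKM + 1), SALL4-delN12 minus SALL4-WT at day 11 (x axis), of each member compared in 25 gene lists, with the number of genes in brackets. Each point is 1 gene, the black bar is the list's median, red and blue points are at least 2-fold higher and lower, and the median is 2.77 for PrE genes, 3.12 for macrophage markers, 1.79 for epithelial genes and -0.89 for fibroblast matrix and contractile genes.

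The 15 named genes with the largest rises, among those at 5 FPKM or more in either library, included *Cited1*, *Sox17*, *Cldn6* and *Cldn7* from the lists above. *S100g*, which encodes the calcium-binding protein calbindin-D9k of absorptive epithelia, had the largest rise of all, from 14.0 to 877 FPKM (5.87). *Cited1* was next, followed by *Cartpt*, a neuropeptide precursor (0.263 and 33.5 FPKM). *Psca*, a GPI-anchored surface protein, went from 0.673 to 39.5 FPKM (4.60), *Pga5*, a pepsinogen, from 0.203 to 18.5 FPKM (4.02), *Fxyd3*, a regulator of the sodium pump, from 0.879 to 26.0 FPKM (3.85), and the water channel *Aqp8* from 2.05 to 38.2 FPKM (3.68). *Bpifb4*, of the lipid-binding BPI fold family, was at 1.64 and 44.9 FPKM, and *Myl3*, a myosin light chain of heart and slow muscle, at 0.064 and 12.1 FPKM. The remaining members were the complement genes *C1qa*, *C1qb* and *C1qc*. The 250 bases before the start of *S100g* (chrX:162964600-162964849, mm10, minus strand) are printed because no other gene rose as far. Capitals mark a forkhead (FOX) motif, GTAAACA, which is TGTTTAC on the other strand, beginning 47 bases before the start. No ATAC-seq peak lay within 2 kb of this start at day 11 with either form, whereas at day 9 both forms had one (scores 70.3 with SALL4-WT and 66.2 with SALL4-delN12), and that of SALL4-WT overlapped the printed bases.
S100g: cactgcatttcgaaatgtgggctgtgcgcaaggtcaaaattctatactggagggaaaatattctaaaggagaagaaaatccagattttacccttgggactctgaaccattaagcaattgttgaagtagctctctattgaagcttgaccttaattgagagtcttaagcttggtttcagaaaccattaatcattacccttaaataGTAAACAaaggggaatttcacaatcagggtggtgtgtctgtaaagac

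The 3 C1q genes belong to macrophages, which MEF cultures can carry, and other macrophage markers moved with them. Of 10 such markers 9 were compared and all 9 rose, with a median of 3.12, which was above that of the PrE list. *C1qa*, *C1qb* and *C1qc* went from 3.88, 4.34 and 3.23 FPKM to 116, 107 and 82.3 FPKM. *Tyrobp*, an adaptor of myeloid receptors, went from 5.46 to 76.2 FPKM (3.58), the lysosomal protein *Cd68* from 9.46 to 69.7 FPKM (2.76) and lysozyme, *Lyz2*, from 161 to 698 FPKM (2.10). Their summed level was 194 FPKM with SALL4-WT and 1198.5 FPKM with SALL4-delN12 at day 11. With SALL4-WT it had gone from 415 at day 1 to 204 and 170 at days 5 and 9, and with SALL4-delN12 from 421 to 518 and 574. *Ptprc*, the marker CD45 of all blood cells, was at 0.088 and 0.892 FPKM, and no marker of the list was at 0. In these bulk libraries more cells of a type and more RNA per cell cannot be told apart, and how much macrophage RNA contributed to the other rises was not tested. In the single-cell data described below, *C1qa* had 0 UMIs in the PrECLCs, a count that allows up to 0.0488 CPM (counts scaled to the total of the cell type, counting error only).

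Fibroblast genes were split. Of 20 matrix and contractile genes, 10 fell and 4 rose, with a median of -0.89. *Fn1*, fibronectin, fell from 958 to 87.4 FPKM (-3.44) and *Lox*, the enzyme that crosslinks collagen and elastin, from 74.5 to 6.48 FPKM (-3.34). *Col6a1* and *Col6a2* fell from 237 to 36.6 FPKM and from 133 to 19.3 FPKM, and the matrix protein *Postn* from 118 to 18.6 FPKM. The main fibrillar collagen was not among them, since *Col1a1* was at 755 and 1065 FPKM (0.50). The 4 genes that rose all belong to the contractile apparatus of smooth muscle. *Myl9* went from 30.0 to 212 FPKM (2.78), *Tagln* from 25.7 to 135 FPKM (2.35), *Cnn1* from 3.92 to 11.99 FPKM and *Acta2* from 35.98 to 91.7 FPKM.

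Mesenchymal transcription factors had lower levels with SALL4-delN12. Of 15 compared, 6 fell, none rose and 14 had a difference below 0, with a median of -0.85. *Prrx1*, a homeobox factor of limb and craniofacial mesenchyme, fell from 47.3 to 12.6 FPKM (-1.83), and *Osr1*, *Zeb2*, *Snai2*, *Foxf1* and *Foxc2* fell by 1.45, 1.29, 1.22, 1.14 and 1.03 on the log2 scale. *Twist1* was at 114 and 62.4 FPKM (-0.86) and *Twist2* at 71.6 and 90.9 FPKM (0.34). HOX genes, which keep the positional identity of fibroblasts, had a median of -0.70 over the 32 compared, with 30 of 32 below 0, 9 that fell and 1 that rose. The Hoxc cluster was lowest, with 5 of 6 genes that fell and a median of -1.29, led by *Hoxc10* (13.3 and 3.09 FPKM) and *Hoxc8* (16.8 and 4.31 FPKM). The medians were -0.65 for Hoxa, -0.80 for Hoxb and -0.52 for Hoxd. The posterior genes *Hoxa11* (34.2 and 33.8 FPKM) and *Hoxd13* (11.4 and 11.6 FPKM) were at nearly equal levels, and *Hoxd12* rose from 0.364 to 1.94 FPKM.

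Of the 15 largest falls, 12 were at least 2-fold higher at day 11 than at day 1 with SALL4-WT, and none was 2-fold lower. With SALL4-delN12, 4 of the 15 were 2-fold higher at day 11 than at day 1, 3 were 2-fold lower and 8 lay between. The 15 genes were picked on the same day 11 libraries, which favours a high SALL4-WT and a low SALL4-delN12 level at that day. No share over all genes was taken, so these counts describe the 15 genes only. *Ins2*, an insulin gene, was listed at 0 at day 1 and then at 10.3, 44.0 and 79.9 FPKM with SALL4-WT at days 5, 9 and 11, but at 0.387, 2.15, 0.351 and 0.580 FPKM with SALL4-delN12 (-5.68 at day 11). At the estimated depth its level at day 11 stood for 404.5 and 3 read pairs. *Tgm3*, a transglutaminase of stratified epithelium, was at 4.35, 30.2, 60.95 and 42.2 FPKM at days 1, 5, 9 and 11 with SALL4-WT and at 1.41, 2.55, 0.387 and 0.625 FPKM with SALL4-delN12 (-4.73 at day 11). *Dcpp2*, a secreted salivary protein gene with close paralogs that can share its reads, was at 12.8 FPKM with SALL4-WT and listed at 0 in all 4 SALL4-delN12 libraries. *Kng1*, kininogen, fell from 73.8 to 4.81 FPKM (-3.69), *Hba-x*, an embryonic globin, from 11.8 to 0.188 FPKM (-3.43), and *C2cd4a* from 72.8 to 3.42 FPKM (-4.06). With SALL4-WT, *Kng1* had been at 1.53 FPKM at day 1, *C2cd4a* at 18.2 FPKM and *Hba-x* listed at 0. *Ptx3*, a soluble pattern recognition protein, fell from 184.6 to 14.0 FPKM (-3.63), *Cp*, the ferroxidase ceruloplasmin, from 62.7 to 4.52 FPKM (-3.53), *Steap4*, a metalloreductase, from 32.6 to 1.71 FPKM and *Prss23*, a serine protease, from 38.1 to 2.29 FPKM. At day 1 these 4 genes were at 15.6, 4.37, 4.58 and 47.1 FPKM with SALL4-WT, so *Prss23* alone of them had not gone up in that form. *Prg4* and *Efemp1* fell by 3.40 and 3.38 on the log2 scale. *Tgm3* had an ATAC-seq peak (score 99.0) and a SALL4 CUT&Tag peak (score 166) within 2 kb of its start with SALL4-WT and neither with SALL4-delN12, nor a peak in MEFs. Both peaks overlapped the 250 bases before its start, printed here for that reason (chr2:130012090-130012339, mm10, plus strand). None of the GATA, FOX, SOX and KLF motifs searched was in these letters, so it carries no capitals.
Tgm3: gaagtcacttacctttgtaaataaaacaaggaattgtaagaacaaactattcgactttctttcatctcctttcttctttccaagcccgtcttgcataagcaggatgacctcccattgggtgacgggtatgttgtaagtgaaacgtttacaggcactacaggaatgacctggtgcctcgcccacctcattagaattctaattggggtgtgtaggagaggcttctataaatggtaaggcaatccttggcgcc

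The fall of *Ins2* was not shared by the genes compared on its *H19* side on chromosome 7, while *Th*, on its other side, was lower too. *H19*, an imprinted noncoding RNA of the same region, was among the most abundant transcripts of either library, at 1038 and 9919.6 FPKM (3.26). *Igf2*, the growth factor gene between *H19* and *Ins2*, was at 169 and 1623 FPKM (3.25). Within chr7:142434850-142899995 (mm10) *Lsp1*, *Tnnt3*, *Mrpl23* and *Tnni2*, chosen for their place after the values were seen, rose too, with differences of 2.09, 2.15, 1.15 and 1.01, while *Th* was at 1.38 and 0.257 FPKM (-0.92). *Igf2os*, antisense to *Igf2*, rose by 3.33, but its reads cannot be separated from those of *Igf2* where strand is not known. Among 14 imprinted growth genes, 12 were compared, 5 rose and 1 fell, with a median of 0.76. *Cdkn1c*, an imprinted inhibitor of the cell cycle, went from 43.4 to 141 FPKM, *Meg3* from 1.71 to 5.52 FPKM and *Mest* from 17.0 to 38.8 FPKM, and *Ndn* fell from 35.7 to 14.7 FPKM.

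Cell cycle genes were higher with SALL4-delN12 in all 22 cases, and 16 of 22 rose, with a median of 1.13. *Birc5* went from 3.03 to 12.2 FPKM (1.71), the mitotic kinase *Plk1* from 4.73 to 15.8 FPKM (1.55) and the replication helicase subunit *Mcm6* from 4.47 to 14.8 FPKM (1.53), and *Mki67* was at 3.50 and 7.34 FPKM (0.89). The earlier libraries give the course of these levels. *Plk1* was at 28.5, 15.3, 4.25 and 4.73 FPKM at days 1, 5, 9 and 11 with SALL4-WT and at 22.4, 16.5, 11.3 and 15.8 FPKM with SALL4-delN12, so both forms ended below day 1, SALL4-WT further than SALL4-delN12. Genes of senescence and of the p53 pathway had a median of -0.89 over 14 compared, 4 of which fell while 1 rose. *Cxcl1*, a chemokine, fell from 57.3 to 13.04 FPKM and *Ccng1*, a p53 target, from 262 to 116 FPKM, whereas the inhibitors *Cdkn1a* (580 and 369 FPKM) and *Cdkn2a* (282 and 193 FPKM) did not reach 2-fold.

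No gene of NuRD, the complex whose contact SALL4-delN12 lacks, passed 2-fold among 14 compared. Its ATPase *Chd4* was at 46.5 and 48.7 FPKM and its methyl-binding subunit *Mbd3* at 74.2 and 86.4 FPKM. Of 15 FGF and ERK feedback genes compared, 3 fell (20%, against 6.02% of all genes) and 1 rose, with a median of -0.53. The ERK phosphatase *Dusp6* fell from 55.9 to 20.7 FPKM (-1.39), *Egr1* from 54.5 to 22.6 FPKM and *Spry1* from 38.7 to 17.2 FPKM, and *Fgfr4*, a receptor of endoderm, rose from 0.210 to 8.06 FPKM (2.90). Of 10 WNT targets compared, 3 rose (*Nkd1*, *Sp5* and *Lef1*, or 30% against 6.22% of all genes) and none fell, with 9 of 10 above 0 and a median of 0.63, although *Axin2* was at 18.3 and 21.5 FPKM. None of 6 BMP targets passed 2-fold at day 11, with a median of -0.23, whereas their medians had been -1.45, -1.25 and -1.17 at days 1, 5 and 9. *Id3*, a direct BMP target, was at 399 FPKM with SALL4-WT and 105 with SALL4-delN12 at day 1, and at 537 and 399 at day 11. Interferon-stimulated genes had medians of -3.81, -1.53, 0.75 and -0.19 at days 1, 5, 9 and 11, and 8 of 9 were at least 2-fold higher in the SALL4-WT library of day 11 than in that of day 9. Cholesterol synthesis genes (16 compared, median -0.30) had none past 2-fold, and of 14 glycolysis and hypoxia genes 1 fell.

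Markers of other fates were mostly low. Of 20 pluripotency genes only 8 reached 1 FPKM in either library, and of these 4 rose (50%, against 6.22% of all genes) and 1 fell. *Lin28a*, *Tdh* and *Dppa5a* were compared only through their level with SALL4-delN12, and *Sox2* only through that with SALL4-WT. *Lin28a* (0.243 and 6.65 FPKM), *Tdh* (0.582 and 6.71) and *Klf2* (1.68 and 5.71) rose, *Dppa5a* was listed at 0 with SALL4-WT and at 4.84 FPKM with SALL4-delN12, *Sox2* fell from 1.73 to 0.183 FPKM, and *Nanog* was at 0.0935 and 0.0366 FPKM. *Pou5f1*, the gene for OCT4, went from 0.160 to 2.58 FPKM, and *Esrrb* from 2.00 to 6.49 FPKM. Of 10 trophoblast markers 7 were compared and 3 rose (42.9%, against 6.22% of all genes). They were *Tfap2c* (2.36 and 13.9 FPKM), *Cdx2* (0.107 and 2.15) and *Hand1* (0.152 and 1.43), the last 2 compared only through their SALL4-delN12 level. Of 10 endothelial markers 6 were compared, with *Flt1* and *Tek* higher and *Kdr* lower. Of 8 keratinocyte markers 6 were compared, *Krt1* and *Krt14* rose and *Krt5* fell. Of 5 blood genes compared 1 rose (*Hba-a1*) and 2 fell. Few genes of muscle (4 compared), fat (4), cartilage (5) and nerve (3) were measurable. Of these 2, 1, 0 and 1 rose (50%, 25%, 0% and 33.3%, against 6.22% of all genes) and 1, 0, 1 and 1 fell. A weakly expressed gene could enter any of these lists through the form in which it was higher, which raises the shares that rose or fell. Lists this short do not settle whether any of these fates differed. The 5 sex-linked genes compared, *Xist* included, all differed by less than 2-fold.

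Each earlier day had its own library of each form, so the genes called at day 11 could be followed in libraries that did not choose them. Of the 842 genes that rose, 427 (50.7%) were also at least 2-fold higher at day 9, against 5.20% of all genes compared, and 297 (35.3%) at day 5 and 156 (18.5%) at day 1, against 3.89% and 3.26%. At day 9 only 1 of them was at least 2-fold lower. For the 814 that fell, 450 (55.3%), 369 (45.3%) and 179 (21.99%) were also lower at days 9, 5 and 1, against 5.05%, 4.35% and 4.27% of all genes. Counted over all genes measurable at each earlier day, 5.74%, 4.45% and 3.90% were higher and 5.51%, 4.70% and 5.16% lower at days 9, 5 and 1. By the order of the days, 125 of the higher genes were past 2-fold at all 4 days, 134 from day 5 on, 161 from day 9 on and 364 at day 11 alone. For the lower genes these counts were 135, 190, 113 and 300.

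PrE genes were late in this order and epithelial genes early. The median of the 12 PrE genes was -0.01, 0.26, 1.76 and 2.77 at days 1, 5, 9 and 11, and that of the 20 epithelial genes 0.35, 1.06, 1.34 and 1.79. *Krt8* was at 9.79 FPKM with SALL4-WT and 141 with SALL4-delN12 at day 1 already, and stayed at 166, 170 and 169 FPKM with SALL4-delN12, while with SALL4-WT it went to 11.3, 21.8 and 31.8 FPKM. *Gata4* in turn was at 0.502, 1.91, 9.47 and 29.3 FPKM with SALL4-delN12, and at 1.04, 0.811, 0.964 and 1.51 FPKM with SALL4-WT. *Sox17* was listed at 0 at day 1 and then at 0.162, 4.88 and 16.2 FPKM with SALL4-delN12. Between days 9 and 11, 9 of 12 PrE genes rose with SALL4-delN12 and 1 with SALL4-WT, with medians of 1.18 and 0.32 for the 2 forms, where 2.16% and 1.94% of the genes compared rose. These comparisons share the day 11 libraries with the main comparison. The SALL4-WT library of day 11 was at or above the SALL4-delN12 library of day 1 for 10 of 12 PrE genes, that of day 5 for 8 of 12 and that of day 9 for 2 of 12.

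**Figure D3:**
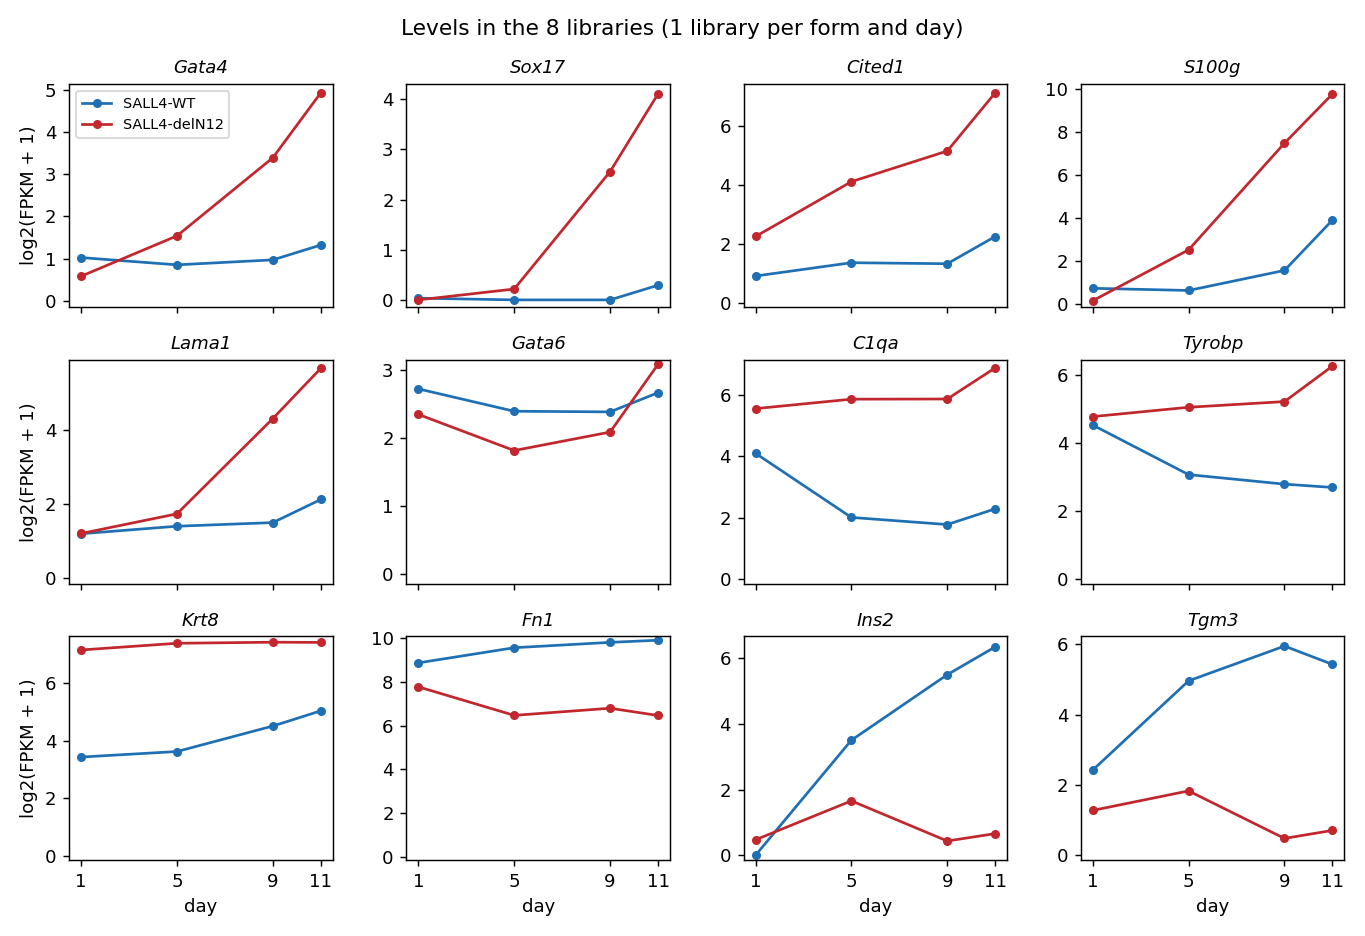
Levels in log2(FPKM + 1) (y axes) at days 1, 5, 9 and 11 (x axes) of 12 genes with SALL4-WT (blue) and SALL4-delN12 (red), each point 1 library. *Gata4*, *Sox17*, *S100g* and *Lama1* separate mainly after day 5, *Krt8* is apart from day 1 on (9.79 and 141 FPKM), and *Ins2* and *Tgm3* climb with SALL4-WT alone.

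Single-cell data from another experiment of the series, in which 4 factors including SALL4 were delivered together (JGES) and cells were read at day 7, gave lists that do not depend on these bulk libraries. The culture with BMP4 held 11335 cells with cell type names from the authors, among them 2372 PrE cell-like cells (PrECLCs, named ParE in the files). For each type the 100 genes with the largest fold over the other cells were taken. Of the 100 PrECLC genes 88 were compared at day 11, 69 rose with SALL4-delN12 and 2 fell, with a median of 1.69 (0.79 at day 9). Over all genes 6.22% rose and 6.02% fell. The other lists had lower medians than the PrECLC list. Of 78 placenta-like genes 28 rose and 1 fell (median 0.67), of 24 genes of pluripotent cells from the culture without BMP4 11 rose and 2 fell (0.52), and of 48 endothelial genes 14 rose and 3 fell (0.43). The 14 include genes of myeloid cells, picked out after their values were seen. They are *Tyrobp* (3.58), *Laptm5* (2.74), *Rac2* (2.39), *Stab1* (2.25), *Spi1* (1.97) and *Csf2rb* (1.47). Among endothelial genes picked out for lower levels, *Kdr* and *Plvap* fell by 1.36 and 1.23. *Sox18*, *Cd34* and *Flt4* had differences of -0.98, -0.97 and -0.94. Yet 29 of the 48 genes had a difference above 0. So did 5 of the 6 endothelial markers of the separate list above, where *Flt1* and *Tek* rose. The part of macrophage RNA in the single-cell endothelial list was not tested. Which genes of these lists were compared did depend on the bulk libraries. A weakly expressed gene could enter through its SALL4-delN12 level alone, which raises the shares that rose. With no filter the median of the endothelial list was 0.00. The genes of the intermediate cells, the largest class, went the other way, with 8 of 89 that rose, 29 that fell and a median of -0.47.

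**Figure D4:**
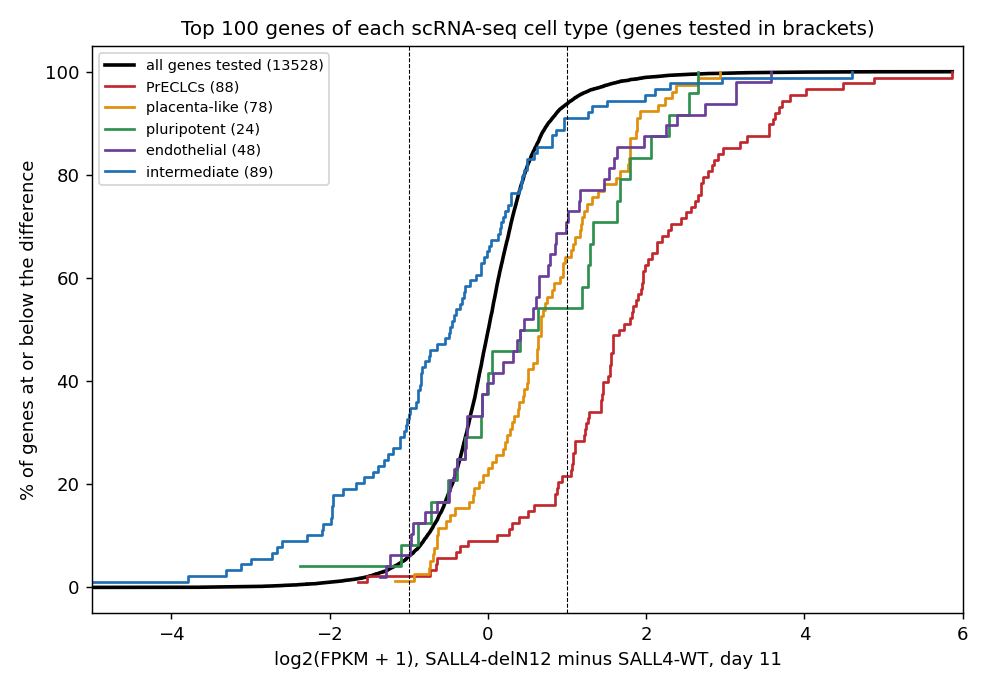
Cumulative share of genes (y axis, percent) at or below each difference in log2(FPKM + 1), SALL4-delN12 minus SALL4-WT at day 11 (x axis), for all 13528 genes compared (black) and for the top 100 genes of 5 single-cell types, with the number compared in brackets. The PrECLC curve (88 genes, median 1.69) lies to the right of the others and the curve of the intermediate cells (89 genes, median -0.47) to the left.

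Read the other way, 685 of the genes that rose had at least 100 UMIs in the culture with BMP4, and 36.1% of them were highest in PrECLCs, against 24.1% of all genes compared. Of 658 such genes that fell, 68.2% were highest in the intermediate cells, against 28.9% of all. Several named genes followed these shares. In PrECLCs and intermediate cells, *S100g* was at 2600 and 221 CPM, *Cited1* at 1123 and 35.4 CPM, *Sox17* at 263 and 4.70 CPM, and *Gata4* at 78.3 and 1.55 CPM, while *Ins2* was at 1208 and 10863 CPM and *Dcpp2* at 141 and 1445 CPM. Some did not. *Psca*, *Cartpt* and *Bpifb4*, which rose with SALL4-delN12, were highest in the intermediate cells (44.3, 1.81 and 1.47 CPM), and *Fn1* was highest in the endothelial cells (1342 CPM). The macrophage genes *C1qa*, *Tyrobp* and *Lyz2* were highest in the cells named endothelial (7.44, 29.7 and 47.8 CPM) and at 0, 0.358 and 0.586 CPM in PrECLCs. These sums come from 1 sample and have no replicate.

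ATAC-seq peaks at day 11, from separate libraries of the same forms, were compared within 2 kb of the RefSeq starts of 13270 of the genes compared. A peak called with SALL4-delN12 alone was rare over all these genes (1.09%), as was one called with SALL4-WT alone (2.06%), and 89.1% had a peak in both. Of 833 higher genes 5.76% (95% Wilson interval 4.37 to 7.56%) had a peak with SALL4-delN12 alone and 4.08% (2.94 to 5.65%) with SALL4-WT alone. Of 797 lower genes these shares were 0.251% (0.0688 to 0.910%) and 8.16% (6.45 to 10.3%). The intervals cover counting error only, and there was 1 ATAC-seq library a form. At day 9 the contrast was smaller. The higher genes then had a peak with SALL4-delN12 alone at 5.64% and with SALL4-WT alone at 5.40%, and the lower genes at 2.13% and 7.90%, against 1.36% and 2.39% of all. Most promoters thus had a peak in both forms or in neither, and 25.7% of the higher genes had none in either, against 7.79% of all. In MEFs 71.5% of the higher genes and 84.9% of the lower genes had a peak at the start, against 91.8% of all.

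The PrE genes followed this picture. Of the 12, 10 had a day 11 peak in both forms, *Pth1r* with SALL4-WT alone (score 70.8), and *Sox17* in neither, and 11 had a peak in MEFs. At day 9, 8 had a peak in both forms, *Pth1r* among them (65.45 with SALL4-WT and 65.67 with SALL4-delN12). Another 2 had one with SALL4-WT alone and 2 in neither. Scores at day 11 were lower with SALL4-delN12 across the whole library, which had 78517 peaks against 89245. Over the 11819 genes with a peak in both forms, the score was above that of SALL4-WT at 10.2%, the median ratio of SALL4-delN12 to SALL4-WT was 0.692, and the score was at least 2-fold lower at 13.9%. For the higher genes a score at least 2-fold lower was seen at 8.19%, and for the lower genes at 30.0%. At day 9 the median ratio over all genes was 1.01, with 51.5% above SALL4-WT. *Gata4* then had a peak with SALL4-WT alone (score 160), although its RNA was already higher with SALL4-delN12. Against the day 11 background, the scores at *Gata4* were 94.5 with SALL4-WT and 146 with SALL4-delN12, and at *Lama1* 834 and 720. Larger gaps stood at epithelial genes, with 73.1 and 309 at *Cdh1* and 108 and 256 at *Epcam*, and at genes that fell, with 622 and 160 at *Steap4* and 576.5 and 75.3 at *Prss23*, while *Fn1* had 1112 and 555, a gap like that at *Mbd3* (2359 and 1195), whose RNA did not reach 2-fold. *Kng1* had a peak with SALL4-WT alone (135). Score and RNA did not always go together, since *Cp*, which fell, had 92.4 and 288, and *Cldn6*, which rose, 154 and 95.1. A score with SALL4-WT at or above that with SALL4-delN12 was seen at all 15 mesenchymal factors compared. But the same held at the 13 of 14 NuRD genes with a peak, *Chd3* having none in either form. SALL4-delN12 was above at 3 of the 22 cell cycle genes, whose RNA was higher. At day 9 SALL4-delN12 was above at 4 of the 15 mesenchymal factors, 9 of the 14 NuRD genes and 15 of the 22 cell cycle genes.

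The CUT&Tag peaks of day 6, merged by the authors over replicates before deposit, separated higher from lower genes less. An H3K27ac peak with SALL4-delN12 alone was at 20.9% of the higher genes and 22.7% of the lower genes, against 10.6% of all, and one with SALL4-WT alone at 3.001% and 2.63%, against 1.73%. The number of peaks called differed between the forms, at 19841 with SALL4-WT and 45599 with SALL4-delN12, so the first class is larger throughout. A SALL4 peak with SALL4-WT alone was at 22.8% of the higher and 21.1% of the lower genes, against 21.3% of all, and one with SALL4-delN12 alone at 4.32% and 7.65%, against 3.01%. For SALL4 the numbers of peaks were close, 69475 and 67310. The near-equal shares with SALL4-WT alone stood beside unequal shares of promoters with any SALL4 peak. No SALL4 peak in either form was found at 44.9% of the higher, 29.9% of the lower and 16.3% of the other genes. One in both forms was at 28.0%, 41.4% and 59.9%.

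**Figure D5:**
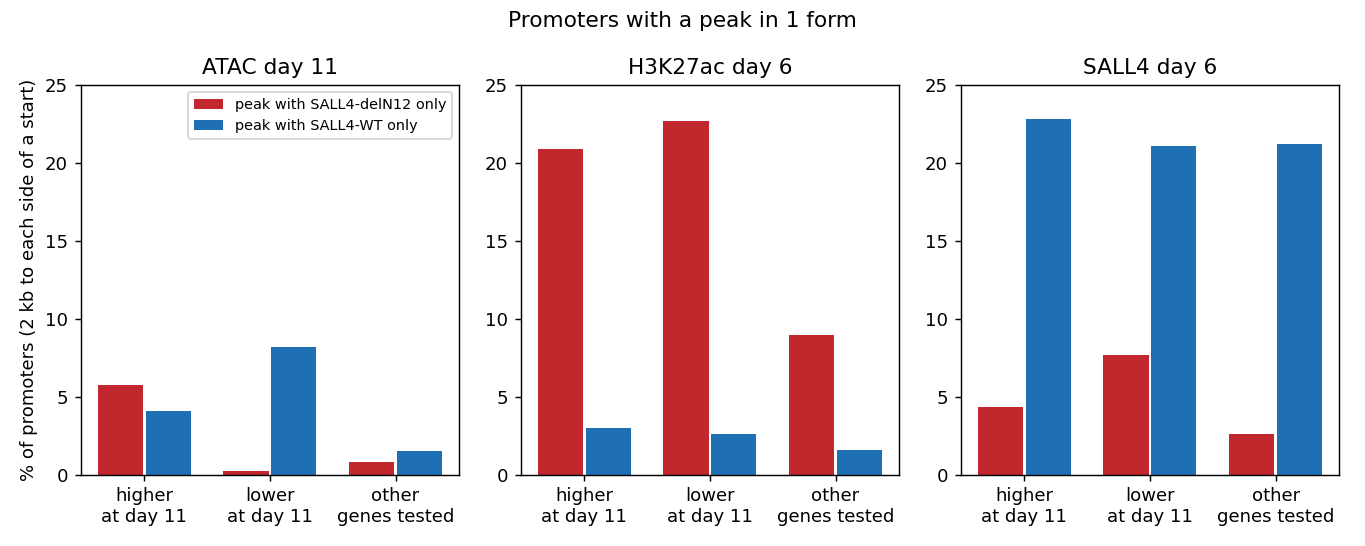
Percent of promoters (y axis, 2 kb to each side of a start) with a peak in SALL4-delN12 cells only (red) or SALL4-WT cells only (blue) for 833 higher, 797 lower and 11640 other genes of day 11, by ATAC-seq at day 11 and CUT&Tag at day 6. ATAC-seq peaks with 1 form only differ between higher (5.76% with SALL4-delN12) and lower genes (0.251%), and SALL4 peaks with SALL4-WT only are at 22.8, 21.1 and 21.2% of the 3 groups. Not drawn are promoters with no SALL4 peak in either form, at 44.9, 29.9 and 16.3% of these groups.

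Motifs were searched on both strands in the RefSeq promoter sequences of the same build, which run from 250 bases before to 50 after each start and matched 615 higher and 593 lower genes. A GATA motif (AGATAA, or the same with T first, with G last or with both) was in 26.8% of the higher genes, 23.3% of the lower and 21.1% of the other genes compared, and in 33.0% of all 27025 symbols in the table. The FOX motif TGTTTAC was in 3.09%, 3.54% and 3.06%, and in 4.05% of all. The SOX motif ACAATGG was in 3.41%, 2.53% and 2.41% (4.15% of all), and the KLF motif GGGTGTGG in 5.69%, 4.89% and 4.48% (4.09% of all). For all 4 motifs the 95% Wilson intervals of the higher and lower genes overlapped. That of the higher genes for GATA (23.5 to 30.5%) lay above that of the other genes compared (20.2 to 21.9%), and that of the lower genes was 20.0 to 26.8%. The sequence before the start of *Epcam* (chr17:87635729-87635978, mm10, plus strand), with none of these letters, is given as an epithelial promoter whose day 11 peak overlapped it with SALL4-delN12 and not with SALL4-WT.
Epcam: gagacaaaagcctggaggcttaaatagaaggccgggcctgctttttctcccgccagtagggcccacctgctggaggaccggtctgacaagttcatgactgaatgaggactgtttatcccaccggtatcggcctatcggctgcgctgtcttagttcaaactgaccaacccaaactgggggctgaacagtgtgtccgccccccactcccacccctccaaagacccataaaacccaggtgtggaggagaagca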

How the data were processed

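Total RNA was sequenced as paired reads by the authors, who trimmed them with Trim Galore 0.6.4, mapped them to mm10 with HISAT2 2.2.1 and deposited FPKM values per gene from StringTie 2.2.1. Strand is not given in the sources used here. Peaks were deposited by the authors with a score of at least 50 (MACS 1.4.2, larger for a lower p-value) after mapping with Bowtie2 2.4.5, CUT&Tag replicates having been merged. Single-cell UMI counts were deposited with the authors' cell type in each cell name, and 10749 columns of cells (named for ESCs and MEFs) were not used because no sample here matched them. The 2 samples shared 2 barcodes. How doublets were treated is not given in the sources used here, and no doublet caller was run.

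FPKM values plus a pseudocount of 1 were put on the log2 scale and subtracted (pandas 2.3.3, numpy 2.4.6). Genes under 1 FPKM in both libraries were dropped, as were RNAs under 200 bases. With 1 library per form and day no test was made. Named genes were *Sall4*, the 15 largest rises and 15 largest falls at 5 FPKM or more (1 unnamed model was skipped on each side), and members of each list with the largest change or level or that its description needed. Some genes that the counts include are not reported here by name. For single cells, counts were summed per type, and list genes needed a UMI in 10% of the cells of the type. Promoters were 2 kb to each side of RefSeq starts of GRCm38.p6, the assembly of mm10. For 13270 genes a start was found. Gene lists and members were chosen with earlier results of these data known. The calculation was tested on simulated data.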

Additional observations from a re-analysis of the deposited data

Results flagged for a closer look

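Some genes named above were at least 2-fold apart in opposite directions at an earlier day and at day 11. None of these changes of sign was tested, since each day had 1 library of each form. At day 1 the collagen VI genes were higher with SALL4-delN12, *Col6a1* by 1.01 and *Col6a2* by 1.05 on the log2 scale, and at day 11 their differences were -2.66 and -2.72. The reverse order was seen for *Adgre1*, a macrophage marker (-1.03 at day 1 and 2.03 at day 11), *Amn* (-1.02 and 1.22), *Cnn1* (-1.07 and 1.401), *Fxyd3* (-1.44 and 3.85) and the interferon-stimulated gene *Bst2* (-1.81 and 1.16). For *Klf2* the difference was -1.08 at day 5 and 1.32 at day 11. *Krt5*, a keratin of basal epithelium, was higher with SALL4-delN12 at days 5 and 9 (2.84 and 2.39) and lower at day 11 (-1.03), when it had gone from 0.504 to 7.76 FPKM with SALL4-WT between days 9 and 11.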

How the results depend on the processing

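No paired analysis was possible because each form had 1 RNA library per day and the labels number replicates of the single-cell samples only. Of 37 gene and list differences of 2-fold or more none changed sign under any alternative run. Most of the 37 are the 15 largest rises and 15 largest falls, picked for their size on the same day 11 libraries. Their sign could hardly change, so this count says little about how firm the results are. Runs with another FPKM filter did not cover single genes. Of 37 medians over lists or all genes, 6 that were under 2-fold changed sign or went to 0 under at least 1 alternative: skeletal muscle markers (0.035 as reported, -0.73 to -0.027 where the sign changed), blood genes (-0.28, then 0.59 at 5 FPKM), interferon-stimulated genes (-0.19, then 1.53 with the SALL4-WT library of day 9), glycolysis and hypoxia genes (-0.03, then 0.03 with that library), all genes (0.01, then -0.08 after rescaling) and the single-cell endothelial list (0.43, then 0.00 with no filter). With a pseudocount of 0.1, 1295 genes were higher and 1320 lower, the medians were 3.05 for endoderm factors, -0.73 for skeletal muscle markers and 2.77 for PrECLC genes, and 61.3% of the higher genes were also higher at day 9. At 5 FPKM or more, 520 genes were higher, the share at day 9 was 60.6%, and medians were 2.57 (endoderm factors), 1.81 (pluripotency), 1.28 (endothelial markers), 1.46 (trophoblast), 0.59 (blood), 1.07 (keratinocyte), 1.59 (single-cell endothelial list) and 1.56 (single-cell pluripotent list). With no filter they were 0.81 (endoderm factors), 0.077 (visceral endoderm), 0.14 (pluripotency) and 0.059 (neural). Rescaling each library to the same sum over the genes kept gave 1259 lower genes, a median of 2.36 for endoderm factors and a day 9 share of 57.6%. A 4-fold threshold left 148 higher and 136 lower genes. With the SALL4-WT library of day 9 in place of day 11, chosen after seeing the data, medians were -0.97 (cholesterol synthesis), 1.48 (imprinted genes), 1.53 (interferon-stimulated) and 1.09 (keratinocyte). With peaks scoring at least 100, ATAC-seq peaks with SALL4-delN12 alone were at 7.92% of higher and 1.00% of lower genes, and with SALL4-WT alone at 6.72%, 15.6% and 3.16% of higher, lower and other genes. H3K27ac peaks with SALL4-delN12 alone were then at 26.5% of lower and 16.8% of other genes, and with SALL4-WT alone at 1.08%, 1.13% and 1.05% of higher, lower and other genes. SALL4 peaks were at 18.4% of higher and 25.1% of other genes with SALL4-WT alone and at 3.93% of other genes with SALL4-delN12 alone. A window of 1 kb gave 5.77% of lower genes with a SALL4 peak with SALL4-delN12 alone. The cause of these shifts was not tested. Depth was known only as an estimate, so low FPKM values have no counting interval.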
